A study of Mus musculus with 2 samples.

Results

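The Notch pathway genes described here were 10 genes of the mouse genome: the receptors Notch1, Notch2 and Notch3, the ligands Dll1, Dll3, Dll4, Jag1 and Jag2, and the fringe genes Lfng and Mfng. Every accessible interval of the consensus table was assigned to the nearest start of a protein-coding gene in the GENCODE annotation of mm10, and an interval was kept when that gene was 1 of the 10. This gave 119 intervals of 119502 in all, nearest to 10 of 21938 protein-coding genes. Of the 119, 10 covered the start of a member gene and are called TSS intervals, while the other 109 are called distal.

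Notch receptors sit on the cell surface and are activated by Delta and Jagged ligands on neighbouring cells. Cleavage of the receptor releases its intracellular part, which enters the nucleus and acts with the DNA-binding protein RBPJ on genes such as Hes1 and Hes5. Fringe enzymes add a sugar to the receptor and so alter which ligands it answers to. In the developing spinal cord, Notch signalling is known for holding neural progenitors back from becoming neurons.

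The assay was ATAC-seq: the Tn5 transposase inserts sequencing adapters where chromatin is open, so an interval that gives more fragments is more accessible. The samples were 2 libraries of 1 group, LIVE_ATAC, each from 50000 live cells. Mouse embryonic stem cells with an Olig2-2A-mKate2 reporter were differentiated to day 5 with 100 nM SAG (a Hedgehog pathway agonist) and 100 nM RA (retinoic acid) and sorted for mKate2, which reports Olig2, the factor that defines motor neuron progenitors (pMN). The sorted cells can also hold new motor neurons and cells positive for both OLIG2 and NKX2.2, and no other group was labelled, so the values below describe sorted cells and compare no conditions.

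The libraries held 31876165 and 31672240 counted fragments, with size factors of 1.00 in both. The labels do not say whether the replicates were separate differentiations, so a p-value between them measures only the spread between these libraries. Of the markers of pMN and shared progenitors, Olig2, Sox2, Sox1 and Nkx6-1 had TSS intervals with mean normalised counts per kb of 862 to 1498, whereas that of Pax6 was weak (184 and 189 per kb in the 2 replicates). Nkx2-2 had 484 per kb in the mean, and the motor neuron genes Mnx1, Isl1 and Tubb3 had 557 to 1087 per kb. At the starts of the gene records of Pou5f1, Nanog, Col1a1, Alb, Myh6 and Ins2 there was none. Other transcript starts of these genes are not given. The fibroblast gene Col1a2 had a weak TSS interval (129 and 117 normalised counts per kb in the 2 replicates). Accessible chromatin at a promoter is not expression, which was not measured in these files.

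Sequences are shown first for the most accessible distal interval of each gene, since these intervals carry much of the signal described below. Each is the central 300 bases of the interval in mm10, written 5′ to 3′ on the plus strand, for the 7 genes whose window held the RBPJ motif or 1 of the 3 E-boxes searched. Capitals mark matches on either strand to the RBPJ motif GTGGGAA, the E-box CAGCTG, the E-box CAGATG and the E-box CATATG (sites of bHLH factors such as OLIG2 and the proneural proteins), the SOX motif ACAAAG and the SOX motif ACAATG. None of these windows touched an annotated UTR.
Notch1, chr2:26502235-26502534, plus strand: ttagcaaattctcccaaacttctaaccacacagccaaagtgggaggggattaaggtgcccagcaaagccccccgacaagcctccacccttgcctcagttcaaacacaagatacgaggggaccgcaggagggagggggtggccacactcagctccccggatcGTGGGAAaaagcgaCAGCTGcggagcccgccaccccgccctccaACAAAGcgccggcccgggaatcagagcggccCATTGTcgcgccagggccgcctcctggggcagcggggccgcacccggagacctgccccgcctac
Notch2, chr3:98026053-98026352, plus strand: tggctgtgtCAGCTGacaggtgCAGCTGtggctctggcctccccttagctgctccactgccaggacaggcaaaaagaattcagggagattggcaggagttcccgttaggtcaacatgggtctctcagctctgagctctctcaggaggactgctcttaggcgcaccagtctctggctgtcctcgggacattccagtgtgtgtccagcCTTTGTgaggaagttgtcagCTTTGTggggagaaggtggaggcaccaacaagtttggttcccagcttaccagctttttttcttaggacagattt
Notch3, chr17:32162188-32162487, plus strand: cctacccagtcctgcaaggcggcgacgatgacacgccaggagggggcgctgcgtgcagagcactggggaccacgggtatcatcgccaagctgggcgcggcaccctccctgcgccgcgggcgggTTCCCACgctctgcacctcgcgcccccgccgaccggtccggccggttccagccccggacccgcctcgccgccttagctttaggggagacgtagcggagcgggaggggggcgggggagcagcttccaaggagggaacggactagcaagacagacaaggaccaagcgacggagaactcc
Dll1, chr17:15248080-15248379, plus strand: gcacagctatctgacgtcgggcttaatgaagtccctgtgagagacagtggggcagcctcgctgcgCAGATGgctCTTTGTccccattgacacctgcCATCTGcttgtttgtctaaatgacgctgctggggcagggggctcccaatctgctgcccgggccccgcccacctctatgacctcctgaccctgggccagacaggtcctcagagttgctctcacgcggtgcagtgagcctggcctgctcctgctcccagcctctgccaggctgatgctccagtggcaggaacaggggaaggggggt
Jag1, chr2:137229830-137230129, plus strand: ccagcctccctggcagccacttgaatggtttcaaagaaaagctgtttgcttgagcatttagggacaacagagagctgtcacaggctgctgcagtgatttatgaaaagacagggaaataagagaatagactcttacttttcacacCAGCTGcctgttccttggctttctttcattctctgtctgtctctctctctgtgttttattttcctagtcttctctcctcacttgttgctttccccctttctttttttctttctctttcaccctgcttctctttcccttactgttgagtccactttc
Lfng, chr5:140611363-140611662, plus strand: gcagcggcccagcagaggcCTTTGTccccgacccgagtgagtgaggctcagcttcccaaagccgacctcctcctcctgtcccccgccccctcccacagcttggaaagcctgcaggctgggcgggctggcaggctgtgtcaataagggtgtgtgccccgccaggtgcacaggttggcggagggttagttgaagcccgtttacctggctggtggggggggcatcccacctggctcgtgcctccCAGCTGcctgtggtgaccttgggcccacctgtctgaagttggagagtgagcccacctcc
Mfng, chr15:78771032-78771331, plus strand: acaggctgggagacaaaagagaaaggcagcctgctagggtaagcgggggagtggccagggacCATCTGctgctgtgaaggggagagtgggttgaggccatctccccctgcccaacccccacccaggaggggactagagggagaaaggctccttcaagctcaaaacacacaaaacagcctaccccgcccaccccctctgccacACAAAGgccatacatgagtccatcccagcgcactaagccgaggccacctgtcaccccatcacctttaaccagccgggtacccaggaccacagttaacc

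The windows of Notch1 and Notch3 each held an RBPJ motif, and that of Notch1 also held CAGCTG and both SOX motifs. In Notch2, Jag1 and Lfng the E-box was CAGCTG, and in Dll1 and Mfng it was CAGATG. The windows of Dll4, Dll3 and Jag2 held neither the RBPJ motif nor any of these 3 E-boxes, and other E-boxes were not searched.

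The promoters are shown for the genes at the ends of the promoter order given below, which for Notch1 rests on its outermost start. Each is the 250 bases before the annotated gene start, on the strand of the gene, with the same motifs in capitals.
Lfng, chr5:140607070-140607319, plus strand: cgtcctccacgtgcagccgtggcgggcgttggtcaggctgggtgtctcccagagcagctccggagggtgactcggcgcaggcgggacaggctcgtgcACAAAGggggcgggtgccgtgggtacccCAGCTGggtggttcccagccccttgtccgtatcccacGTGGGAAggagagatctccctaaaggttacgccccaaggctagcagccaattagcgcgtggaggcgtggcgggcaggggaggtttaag
Notch1, chr2:26516664-26516913, minus strand: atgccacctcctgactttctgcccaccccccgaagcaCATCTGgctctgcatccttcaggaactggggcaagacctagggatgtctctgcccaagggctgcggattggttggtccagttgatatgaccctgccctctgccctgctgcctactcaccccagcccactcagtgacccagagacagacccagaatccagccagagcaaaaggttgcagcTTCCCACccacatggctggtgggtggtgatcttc

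Before the Lfng start lay the SOX motif ACAAAG, the E-box CAGCTG and the RBPJ motif, in that order towards the start. Before the Notch1 start lay CAGATG and the RBPJ motif, both read on the opposite strand. Of all 21938 protein-coding genes, 5.26% held the RBPJ motif in this stretch and 12.3% held CAGCTG. Among the 10 genes, 3 held the RBPJ motif (Lfng, Mfng and the outermost start of Notch1) and 4 held CAGCTG (Dll1, Dll3, Lfng, Mfng). The same stretch before the inner coding start of Notch1, at position 26503822, held none of the marked motifs. CAGATG was held by 2 of the 10 (13.0% of all genes), CATATG by 1 (2.92%), ACAAAG by 3 (15.7%) and ACAATG by 2 (9.22%). TAATTA (4.99%), TGTTTAC (2.67%) and GACCACCCA (0.191%) were held by 0. All 10 members had a TSS interval, whereas the 21938 genes include genes without one.

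Promoter accessibility is given as density, the normalised read count divided by the length of the TSS interval in kb. Over the 13500 protein-coding genes with a TSS interval (61.5% of all), the median density was 897 per kb in replicate 1 and 870 per kb in replicate 2. The median over the 10 member genes was 836 and 823 per kb, so per kb the members as a list sat near the middle of all promoters, at 0.940 times the median of all genes in the means over both libraries. With counts per interval in place of counts per kb the ratio was 1.44, so the direction of this comparison depended on the scale. Their promoters nevertheless ranged widely, from percentile 96.6 for Lfng to 0.970 for the outermost start of Notch1. Next lowest was Dll3 at percentile 23.9, and the inner coding start of Notch1 lay in a dense interval described below.

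**Figure D1:**
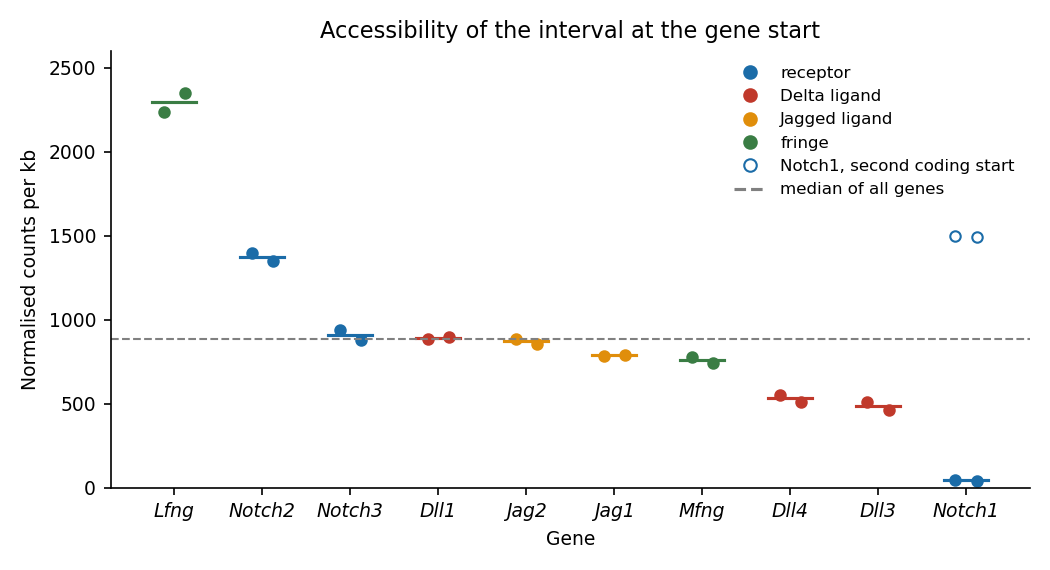
Promoter density of each gene in normalised counts per kb (y axis), with genes ordered along the x axis. Points are the 2 libraries, bars their mean and the dashed line the median of all genes (884 per kb). Lfng stands highest at 2294 per kb and Notch1 lowest at 45.2 per kb, while the open circles at the second coding start of Notch1 lie at 1501 and 1491 per kb.

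Among the receptors, Notch2 had the gene start with the highest density. Its TSS interval (chr3:98013112-98014280) had a density of 1398 per kb in replicate 1 and 1348 per kb in replicate 2, a mean of 1373 ± 35.9 (SD, n = 2), which ranked at percentile 77.5 of all promoters. Notch3 (chr17:32165305-32167195) had 938 and 880 per kb, a mean of 909 ± 40.9 (SD, n = 2) and close to the median gene. Per interval the order of these receptors turned, with Notch3 at 1719 normalised counts in the mean (percentile 73.1) and Notch2 at 1605 (percentile 69.1). The Notch3 product is best known from vascular smooth muscle but is also present in neural progenitors.

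Notch1, the receptor most studied in neural progenitors, was the exception. The interval at its annotated gene start (chr2:26516013-26517196) held only 56 fragments in replicate 1 and 51 in replicate 2, a density of 47.3 and 43.1 per kb. The exact Poisson intervals of these densities, 35.7 to 61.4 and 32.1 to 56.6 per kb, cover counting error only, and no molecular identifiers were counted. The mean of 45.2 ± 3.01 per kb (SD, n = 2) ranked at percentile 0.970. The gene has a further protein-coding start inside the gene record, at position 26503822. That start lay in an interval (chr2:26500400-26504369) whose near edge is 12.3 kb past the outermost start, with 5955 and 5921 fragments, the highest count of all 119. Its density was 1501 and 1491 per kb, and it ranked at percentile 82.1 of 14638 genes when starts of all coding transcripts were used. The low rank of Notch1 thus held for the outermost start and not for the inner start. Here the inner interval counts as distal, because the gene record begins elsewhere.

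Among the Delta ligands, which present the activating signal to neighbouring cells, Dll1 had the densest TSS interval. This interval (chr17:15374762-15377146) had 885 per kb in replicate 1 and 900 per kb in replicate 2, a mean of 892 ± 10.8 (SD, n = 2). Dll4 (chr2:119325134-119326561), best known from blood vessel sprouting and also present in subsets of spinal neuron precursors, had 553 and 512 per kb. Dll3 (chr7:28301272-28302744), a divergent ligand that does not activate the receptor in neighbouring cells, had 511 and 463 per kb. The TSS interval of Dll1 also held the start of the lincRNA gene A930024N18Rik, and that of Dll4 the start of the non-coding gene Gm14207, so these values cannot be divided between the neighbouring starts. Dll4 and Dll3 were both below the median gene, at percentiles 26.6 and 23.9.

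The Jagged ligands had promoters of ordinary density. Jag2 (chr12:112928381-112930371) had 888 per kb in replicate 1 and 857 per kb in replicate 2. Jag1 (chr2:137114204-137117724) had 786 and 790 per kb, over the longest TSS interval of the 10 genes (3521 bp). Per interval rather than per kb, Jag1 stood at percentile 93.3 of all promoters, so its rank depended on the scale.

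The fringe promoters differed from each other. Lfng (chr5:140606918-140607763) had the densest promoter of all members, 2237 per kb in replicate 1 and 2350 per kb in replicate 2, a mean of 2294 ± 79.7 (SD, n = 2) at percentile 96.6. Mfng (chr15:78773164-78773795) had 780 and 740 per kb, at percentile 41.5. Per interval, Lfng ranked at percentile 79.6 and Mfng at 18.1, so the order of these genes was the same on both scales.

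From highest to lowest, the order of promoter density was Lfng, Notch2, Notch3, Dll1, Jag2, Jag1, Mfng, Dll4, Dll3 and Notch1. The last place of Notch1 held for its outermost start. With transcript starts its density was 1496 per kb, above the 1373 per kb of Notch2. The ranges over the 2 libraries overlapped between Notch3 and Dll1 and between Dll1 and Jag2, and no other neighbours in the order overlapped. No test was applied to this order, because an exact two-sided permutation test of 2 values against 2 cannot go below p = 0.333.

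The member genes had many intervals. Their median was 9 intervals per gene, against 3 over all protein-coding genes. The ground nearest to their starts came to 1296 kb in all and held 9.18 intervals per 100 kb, against 4.38 over all genes. The median ground per gene was 54.8 kb for members and 47.7 kb for all genes. Of the 10 genes, Jag1 had the most ground (683 kb) and the fewest intervals per 100 kb (4.69). Jag1 had the most intervals (32), followed by Notch2 (21), Dll1 (15), Notch1 (13) and Mfng (10), and Dll3 had the fewest (2). These counts depended on which starts competed: with the starts of all annotated genes the total fell from 119 to 55, with 13 for Jag1, 10 for Mfng, 8 for Notch1, 7 for Notch2, 3 for Dll1 and 1 for Jag2.

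The intervals were also often strong. A mean normalised count over 100 was reached by 61 of 119 intervals (51.3%, 95% Wilson interval 42.4 to 60.1%), against 38.8% of all intervals. Among distal intervals it was 52 of 109 (47.7%, 38.6 to 57.0%), against 32.4% of all distal intervals. The share differed between genes, with 12 of 21 for Notch2, 15 of 32 for Jag1, 9 of 15 for Dll1, 7 of 13 for Notch1 and 2 of 7 for Jag2. Intervals around the same gene share its locus and are not independent.

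Most of the signal lay away from the gene starts. TSS intervals held 27.9% of the member counts in replicate 1 and 27.0% in replicate 2, against 48.7% and 47.9% over all intervals. With starts of all coding transcripts, which moves the inner Notch1 interval to the TSS class, the members' share was 39.2%. The share over all intervals with those starts is not given, so 39.2% has no matching background here. The median TSS interval of the members was 4.89 and 4.39 times as dense as their median distal interval in the 2 replicates, against 6.98 and 6.59 over all intervals. In the means over both libraries, the medians were 830 and 177 per kb for members, and 853 and 125 per kb over all intervals, so the difference in this ratio sat in the distal intervals. Member distal windows were richer in G and C (median 53% against 48.3%).

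**Figure D2:**
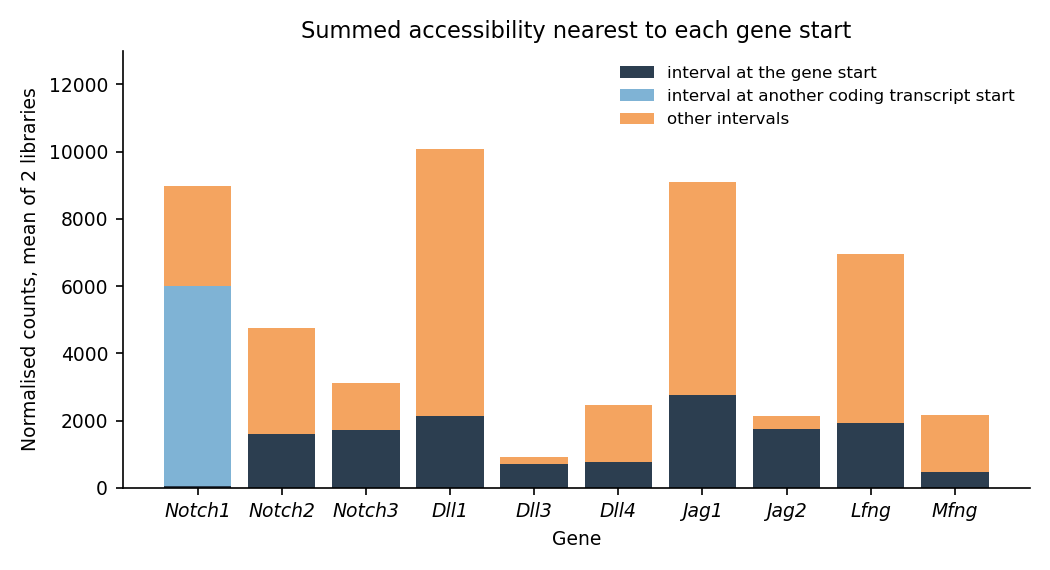
Summed normalised counts of all intervals nearest to each gene (y axis, mean of the 2 libraries), divided into the interval at the gene start, an interval at another coding transcript start and all other intervals. Dll1 has the highest sum (10081) with 21.1% at its gene start, or 6857 with 31.0% without the interval at the start of Gm5091, whereas Jag2 has 81.6% of its 2129 counts there.

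The genes fell into different layouts. Jag2, Dll3 and Notch3 carried 81.6%, 77.7% and 55.1% of their summed counts in the TSS interval, and the other genes carried at most 33.7% there. For Notch1 the share at the outermost start was 0.595%. The interval at its inner coding start held 5938 of its 8991 normalised counts in the mean, so its layout depended on the start used. Summed counts, which grow with the amount of ground and the number of intervals, were highest for Dll1 (9856 in replicate 1 and 10307 in replicate 2), Jag1 (8867 and 9342) and Notch1 (8955 and 9027). The Dll1 sum included an interval at the start of another gene, Gm5091 (described below), and without it was 6743 and 6972, below Jag1 and Notch1. The sums were lowest for Dll3 (973 and 876). By role, the receptors had 40 intervals, the Delta ligands 22, the Jagged ligands 39 and the fringe genes 18.

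Of the 119 intervals, 42 lay upstream of the gene, 41 within it and 26 beyond its end, besides the 10 TSS intervals. By annotation, each of the 109 distal intervals was put in 1 class, with a coding exon taken before a UTR and a UTR before a non-coding exon. The classes held 54 intergenic, 35 intronic, 12 coding exon, 7 non-coding exon and 1 UTR intervals. An interval of the coding exon class can also touch a UTR. Of the 55 over a gene body, the gene that gave the class was their own for 40 and another for 15. Among the 15, an interval over an exon of Gm42819 (chr3:98033089-98033958) also lay within its own gene, Notch2. All 9 distal intervals within 5 kb of a start were over 100 normalised counts, as were 31 of 72 at 5 to 50 kb, 6 of 8 at 50 to 100 kb and 6 of 20 beyond 100 kb. The shares over all distal intervals by annotation or by distance are not given. These counts thus have no matching background and are not read as a trait of the member genes.

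**Figure D3:**
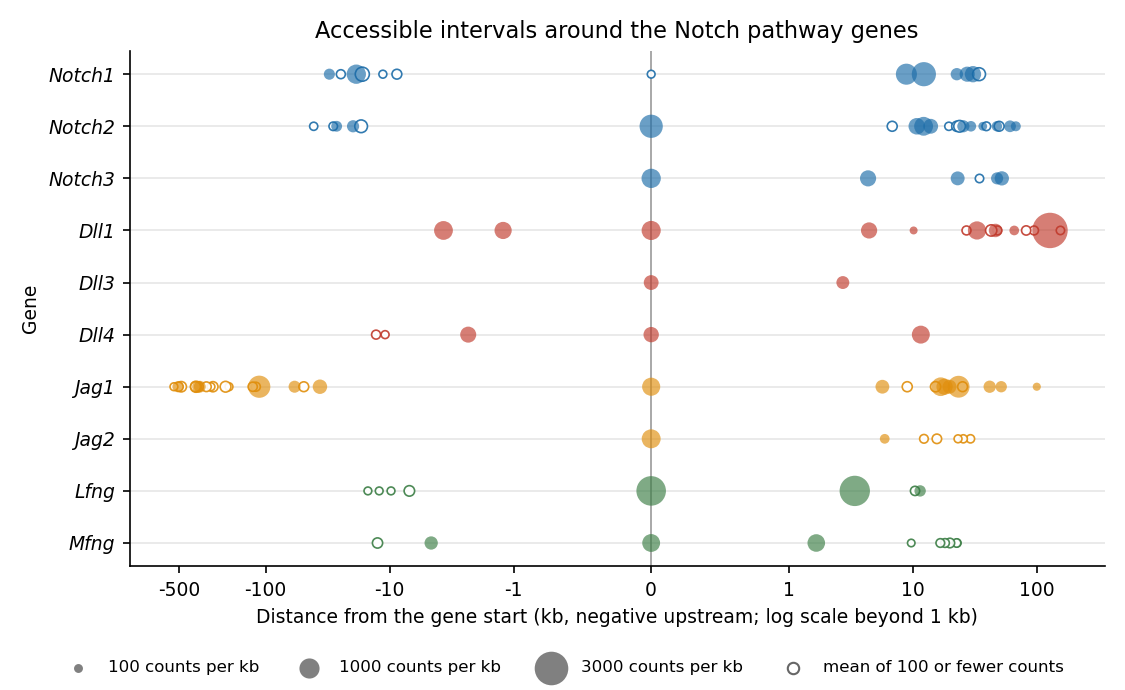
Position of each of the 119 intervals relative to its gene start (x axis, kb, log scale beyond 1 kb, upstream negative), 1 row per gene. The area of a circle grows with density, filled circles are means over 100 normalised counts and open circles lower means. Jag1 reaches 550 kb upstream and Dll1 156 kb downstream, and the largest circle is the Dll1 interval at 128 kb.

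The densest interval of all 119 was assigned to Dll1 but lay 128 kb downstream of its start (chr17:15247748-15248710). It had 3233 per kb in replicate 1 and 3463 per kb in replicate 2, above percentile 99.9 of distal intervals. It covered the start and an exon of the lincRNA gene Gm5091, which protein-coding starts leave out, so its assignment to Dll1 rests on distance alone. Closer to Dll1, an intergenic interval 3.67 kb upstream (chr17:15380546-15382790) had 858 and 855 per kb, close to the promoter itself. A further intergenic interval 33.0 kb downstream (chr17:15342680-15343875) had 772 and 826 per kb.

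Lfng had an interval inside its own gene with a density close to that of its promoter. Located 3.41 kb past the start and touching a coding exon (chr5:140610725-140612299), it had 2346 per kb in replicate 1 and 2503 per kb in replicate 2. Its mean density was 1.06 times that of the promoter. It was denser than the promoter in each library, although the ranges over the 2 libraries overlapped. Per interval it held 3819 normalised counts in the mean, against 1940 at the promoter, so the comparison depended on the scale. The 4 upstream intervals of Lfng were weak, between 46.0 and 184 per kb. A further interval 11.5 kb downstream, with 249 and 229 per kb, lay over the UTR of the neighbouring gene Ttyh3 and left Lfng when transcript starts were used.

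The Jag1 locus was the most extended, with 683 kb of ground nearest to its start. Its densest distal interval was intergenic and 113 kb upstream (chr2:137229368-137230591), with 1217 per kb in replicate 1 and 1269 per kb in replicate 2, which is 1.58 times the promoter density. An interval over a coding exon of Jag1, 23.5 kb inside (chr2:137092498-137093193), had 1183 and 1219 per kb. Beyond 113 kb upstream lay 16 more intervals out to 550 kb, the densest of them at 273 per kb in the mean, and 2 downstream intervals lay in introns of the gene Slx4ip.

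In the receptors, the densest distal interval was within the gene. For Notch1 it was the interval at the inner start. For Notch2 it was intronic, 12.2 kb past the start (chr3:98025762-98026642), with 836 per kb in replicate 1 and 891 per kb in replicate 2. For Notch3 it was intronic and 4.36 kb past the start (chr17:32162183-32162492), with 565 and 635 per kb. Notch1 also had an intergenic interval 18.6 kb upstream (chr2:26535236-26536133) with 883 and 943 per kb, far above its outermost start.

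The remaining genes had less prominent distal intervals. Dll4 had an intergenic interval 11.6 kb downstream (chr2:119337403-119338403) with 811 per kb in replicate 1 and 730 per kb in replicate 2, which is 1.45 times its promoter. Mfng had an interval over a non-coding exon 1.67 kb inside (chr15:78770552-78771810) with 749 and 720 per kb. The densest of Dll3 (chr7:28298907-28299510) had 364 and 319 per kb, and that of Jag2 (chr12:112921920-112923836) had 139 and 146 per kb, both over coding exons. Of the 109 distal intervals, 9 were denser than the median TSS interval of the genome (8.26%, Wilson interval 4.40 to 15.0%), against 3.37% of all distal intervals. These 9 included the intervals at the inner coding start of Notch1 and at the start of Gm5091. The lowest of them, at Dll1, had 857 per kb against that median of 853.

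The replicates were compared interval by interval with an exact binomial test, adjusted over all 119502 intervals by Benjamini-Hochberg. At an adjusted p limit of 0.01, 0 of 119 member intervals were called, and 0.0% of all intervals. With edgeR's TMM factors the counts were 0 of the members and 6 of all intervals. At an unadjusted p under 0.05, 11 of 119 member intervals (9.24%) and 8.39% of all intervals differed. The SD of the log2 ratio of replicate 2 to replicate 1 was 0.30 over the members and 0.38 over all intervals, and 0.13 and 0.14 among those over 100 normalised counts. Of the members, 66 were higher in replicate 2 and 53 in replicate 1.

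**Figure D4:**
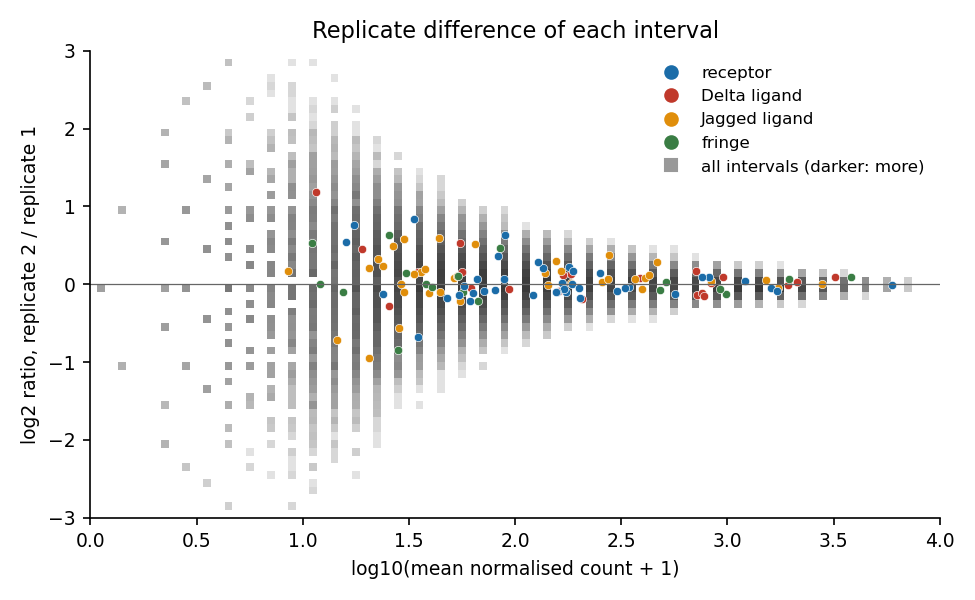
Log2 ratio of replicate 2 to replicate 1 (y axis) against the log10 mean normalised count plus 1 (x axis) for the 119 member intervals, over a grey grid of all intervals. The members spread like the rest, widely at low counts and with an SD of 0.13 above 100 counts.

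Among intervals over 100 counts, the 5 with the largest ratios were all higher in replicate 2. A Jag1 interval in an intron of Slx4ip (chr2:137063708-137064876) had 240 normalised counts in replicate 1 and 312 in replicate 2, a log2 ratio of 0.38 (exact binomial test, adjusted p = 0.298). A Jag1 interval over coding exons (chr2:137095739-137096841) had 416 and 509, a log2 ratio of 0.29 (exact binomial test, adjusted p = 0.298). The other 3, 1 at Jag1 (139 and 171) and 2 in introns of Notch2 (115 and 140, 165 and 193), had log2 ratios of 0.30, 0.28 and 0.22. None of these 5 passed the adjusted limit.

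The motifs of the distal windows, 300 bases at the centre of each interval, were counted as descriptions of sequence and not as bound sites. The RBPJ motif was found in 12 of 109 member windows (11.0%, Wilson interval 6.41 to 18.3%), against 7.02% of all 107284 distal windows. The E-box CAGCTG was found in 18.3% against 22.8%, CAGATG in 24.8% against 28.9% and CATATG in 7.34% against 5.55%. The SOX motif ACAAAG was found in 37.6% against 33.5% and ACAATG in 28.4% against 23.2%. In each of these the share over all distal windows lay inside the members' Wilson interval. Over whole intervals, which were longer at the members (median 544 bp against 472 bp), RBPJ was found in 30 of 109 (27.5%, Wilson interval 20.0 to 36.6%) against 13.5%, so its share over all intervals then lay outside. Over whole intervals CAGCTG (38.5% against 36.6%) and CAGATG (45.9% against 44.1%) turned from lower to higher at the members. The Wilson intervals take intervals as independent, although many share a locus. Member windows were also richer in G and C (median 53% against 48.3%), and the bearing of this on the shares was not tested.

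**Figure D5:**
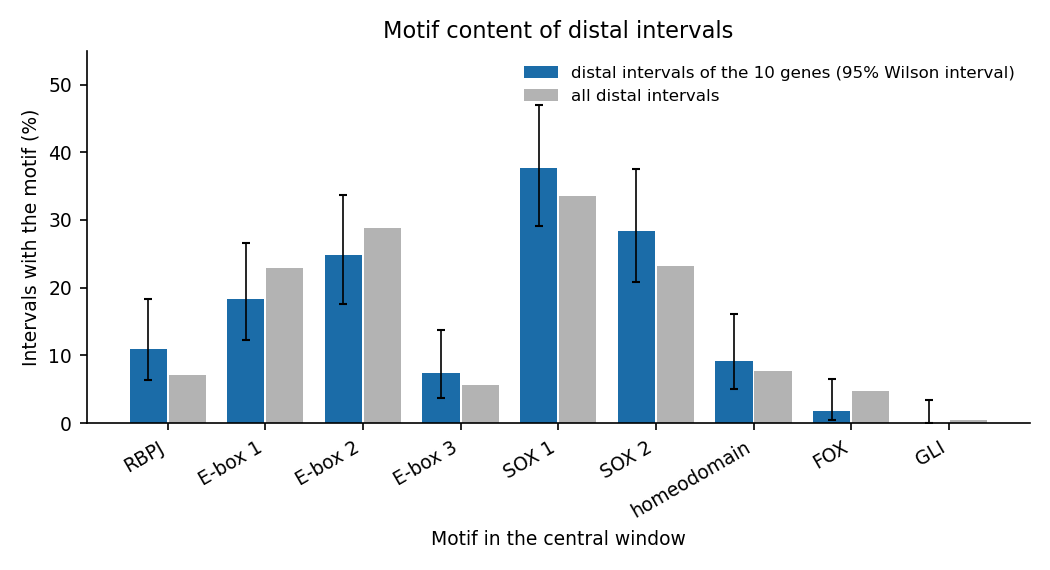
Percentage of distal windows holding each motif (y axis) for the 109 member intervals, with 95% Wilson intervals, and for all distal intervals. E-box 1 is CAGCTG, E-box 2 is CAGATG, E-box 3 is CATATG, SOX 1 is ACAAAG and SOX 2 is ACAATG. The RBPJ bar is at 11.0% against 7.02% and for all 9 motifs the share of all distal intervals lies inside the members' Wilson interval.

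The homeodomain core TAATTA was found in 9.17% of member windows against 7.66%. The forkhead motif TGTTTAC was found in 2 of 109 (1.83%) against 4.69%, and the GLI motif GACCACCCA in 0 of 109 (Wilson interval 0 to 3.40%) against 0.495%. The 12 windows with the RBPJ motif were 4 at Jag1, 3 at Notch1 and 1 each at Notch2, Notch3, Dll4, Lfng and Mfng. Of these 12, 7 (58.3%) were in intervals over 100 normalised counts, against 47.7% of all member distal intervals. Over all distal intervals the share was 32.9% for those with the RBPJ motif and 32.4% for all. Of the same 12, 7 (58.3%) also held 1 of the 3 E-boxes, against 41.3% of all member distal windows. Among all distal windows with the RBPJ motif it was 47.6%. As a share of all distal windows the combination was found in 6.42% at the members and 3.34% in all.

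The other genes of the pathway gave a frame for these values. Of 36 listed genes, 32 had a TSS interval, with a median density of 1043 per kb, and 21 of the 32 were above the median of all genes. The transducers and targets had a median of 1320 per kb over 9 of 10 genes. Among them Hes1, a repressor of neuronal differentiation, had 1461 and 1416 per kb in the 2 replicates, and Hes5, a related repressor, had 1784 and 1780. The proteases that cleave the receptor had a median of 1180 per kb over 7 of 8 genes, all above the median of all genes, and the trafficking genes had 753 per kb over 11 genes. The lowest of the list was Dtx1 (208 per kb), a regulator of receptor trafficking, and the highest was Aph1b (3183 per kb), a subunit of the γ-secretase complex. Rbpj, Psen2, Notch4 and Dlk1 had no interval at the start of the gene record, and their other transcript starts are not given. They were nearest to 16, 7, 3 and 21 intervals, of which 3, 2, 0 and 10 were over 100 normalised counts.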

How the data were processed

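The 2 libraries were Omni-ATAC libraries of sorted live cells. The deposited table holds raw counts of fragments per consensus interval in mm10, made by the authors with the nf-core atacseq pipeline and featureCounts 2.0.1, with a fragment assigned to an interval at an overlap fraction of at least 0.2 and allowed in more than 1 interval. Peaks were called by MACS at an FDR of 1e-05 and kept when present in at least 2 replicates. The aligner is not given in the sources used here. The table has 3 further columns that belong to no sample and were not used.

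Normalisation used the size factors of DESeq2 1.42.0, and density is the normalised count per kb of interval. Gene starts and annotations came from GENCODE vM21, and sequences from the RefSeq genome of GRCm38.p6. Replicates were compared by a two-sided exact binomial test per interval (scipy 1.17.1) with Benjamini-Hochberg adjustment over all intervals and a limit of 0.01. The code was tried on simulated counts with Poisson spread only, which is what the test assumes. That trial does not show whether the test suits the spread between these libraries. Log2 ratios used a pseudocount of 1. Motif windows had 300 bases, and intervals on shares are 95% Wilson intervals. A mean normalised count over 100 was used as the limit for a strong interval. Alternatives were TMM factors (edgeR 4.0.16), total counts, other gene starts, other windows and filters, and leaving out each replicate.

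The genes, lists and motifs were chosen with earlier results of these data known. The values named were those of all 10 genes, their TSS intervals, the densest distal interval of each gene, and the 5 intervals over 100 counts with the largest replicate ratios. For the other listed pathway genes the rule named the highest and lowest promoter. A further 5 distal intervals (2 of Dll1, and 1 each of Jag1, Notch1 and Lfng), and Hes1 and Hes5, were named after their values were seen.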

Additional observations from a re-analysis of the deposited data

How the results depend on the processing

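No paired analysis was possible because the series has 1 group. Leaving out 1 of 2 replicates or changing the library factors, which all lay near 1, could hardly move the values of single genes, and those settings say little about stability. Per interval in place of per kb, the promoter percentiles of all 10 genes moved by more than the replicate spread, from 43.2 to 93.3 for Jag1. Without the interval at the start of Gm5091 (an alternative added once the data had been seen) Dll1 summed to 6857 in place of 10081. The number of member intervals fell from 119 to 55 when the starts of all annotated genes competed. The percentage of intervals over 100 counts was 51.3% to 52.1% with each replicate left out. The median promoter density of the members over that of all genes was 0.940, and it moved to 0.981 with transcript starts, 0.990 within 1 kb of the start and 1.44, above all genes, with counts per interval. The ratio of TSS to distal intervals was 18.9 per interval, and the share of member counts in TSS intervals was 39.2% with transcript starts. The SD of the replicate ratio was 0.23 with a pseudocount of 10. Over whole intervals in place of the central window, the shares rose to 27.5% for RBPJ (13.5% of all distal intervals, the share given in brackets from here on), 38.5% for CAGCTG (36.6%), 45.9% for CAGATG (44.1%), 56.0% for ACAAAG (48.2%), 42.2% for ACAATG (35.2%) and 18.3% for TAATTA (13.3%), since a longer stretch was searched. In the CAGATG comparison the members were lower in 300 bases and higher in 200 bases (21.1% against 21.0%) and over whole intervals. The density at the Notch1 start was 1496 per kb with transcript starts, in place of 45.2. Counts in weak intervals limit the precision of their ratios, and 2 libraries give no test of the order.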
